A study of Homo sapiens with 12 samples.

Results

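The 3 cytoplasmic and muscle α-actinin genes ACTN1, ACTN2 and ACTN4, 6 genes of the contractile apparatus (ACTA2, TAGLN, CNN1, MYL9, TPM1 and TPM2) and SRF, which encodes serum response factor, were examined across PIK3CA mutation and insulin treatment. These 10 genes were taken by symbol from the 60617 gene identifiers of each library. They were chosen by their place in 1 pathway, with earlier results of these libraries known, among them the high ACTN2 level in H1047R cells given insulin compared with vehicle, so ACTN2 was selected on that value. All 10 passed the filter on low counts (a mean of at least 1 count per library). All 10 also passed a filter of at least 1 CPM (gene counts scaled to library size) in 3 libraries. ACTN2 passed that second filter only through the H1047R insulin libraries.

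The libraries came from 12Z, an immortalized line of epithelial cells taken from an endometriosis lesion, that is, endometrial tissue found outside the womb. All cells carried transfected non-targeting siRNA and a transiently transfected pBabe plasmid, which held PIK3CA H1047R (H1047R cells) or was empty (control cells), and after 4 h without serum they received 100 nM insulin or vehicle for 24 h. PIK3CA encodes the p110α catalytic subunit of phosphoinositide 3-kinase and H1047R is an activating change in its kinase domain. The groups were H1047R insulin, H1047R vehicle, control insulin and control vehicle, with 3 independent experiments each, all in the same cell line.

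α-Actinins are antiparallel dimers that cross-link actin filaments. ACTN1 and ACTN4 encode the non-muscle forms found at focal adhesions and along stress fibres, whereas ACTN2 encodes a muscle form that anchors thin filaments at the Z-disc of striated muscle. Smooth muscle α-actin (ACTA2), transgelin (TAGLN), calponin (CNN1), the regulatory myosin light chain (MYL9) and the tropomyosins (TPM1 and TPM2) build or regulate contractile filaments, and their genes are classical targets of SRF. SRF binds the CArG box and works with 2 kinds of cofactor. The myocardin-related factors MRTFA and MRTFB respond to the pool of free actin and drive contractile genes, while ternary complex factors such as ELK1, ELK3 and ELK4 respond to MAP kinase signalling and drive immediate early genes.

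RefSeq promoter windows of 300 bases (GRCh38.p14) were found for 8 of the 10 genes, all but TAGLN and MYL9. For each gene 1 window was used, around the first start listed, and it was searched on both strands for the CArG box. An exact box was present in 1.29% of 27305 promoters, and a box with at most 1 mismatch in 19.3%. The SRF window held 2 exact boxes, at -30 and -10 from the start, and another with 1 mismatch at 14. The ACTN4 window held 1 box with 1 mismatch, at -101. The windows of ACTN1, ACTN2, ACTA2, CNN1, TPM1 and TPM2 held neither kind, which says only that these letters were not in these windows. Any other start of a gene was not searched. The ACTA2 window (chr10:88991288-88991587, minus strand) lies at the upstream end of that gene's annotated span, so it does not describe starts further along the gene. The SRF window is shown because it holds exact boxes, in capitals, and those of ACTN2, ACTN1 and CNN1 because these genes had different patterns in the 4 groups. They lie at chr6:43171019-43171318 (plus strand), chr1:236686249-236686548 (plus strand), chr14:68979253-68979552 (minus strand) and chr19:11538601-11538900 (plus strand), and are written 5′ to 3′ along the gene.
SRF: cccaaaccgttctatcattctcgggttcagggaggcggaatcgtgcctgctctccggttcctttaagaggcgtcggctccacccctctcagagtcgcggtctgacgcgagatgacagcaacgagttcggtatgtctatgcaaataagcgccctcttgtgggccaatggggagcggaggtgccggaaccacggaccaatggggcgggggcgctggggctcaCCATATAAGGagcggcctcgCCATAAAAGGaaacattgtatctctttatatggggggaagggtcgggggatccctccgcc
ACTN2: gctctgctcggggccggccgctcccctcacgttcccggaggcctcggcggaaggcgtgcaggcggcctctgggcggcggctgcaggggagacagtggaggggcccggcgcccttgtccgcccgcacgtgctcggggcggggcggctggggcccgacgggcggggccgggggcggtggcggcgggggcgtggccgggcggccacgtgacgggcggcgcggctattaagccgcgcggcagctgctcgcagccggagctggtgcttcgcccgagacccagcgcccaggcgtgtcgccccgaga
ACTN1: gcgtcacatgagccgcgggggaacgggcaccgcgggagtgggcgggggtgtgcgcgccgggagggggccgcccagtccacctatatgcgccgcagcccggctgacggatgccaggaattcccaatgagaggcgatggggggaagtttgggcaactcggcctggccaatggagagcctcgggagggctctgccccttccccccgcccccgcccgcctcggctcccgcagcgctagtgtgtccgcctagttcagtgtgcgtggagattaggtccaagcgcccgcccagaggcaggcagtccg
CNN1: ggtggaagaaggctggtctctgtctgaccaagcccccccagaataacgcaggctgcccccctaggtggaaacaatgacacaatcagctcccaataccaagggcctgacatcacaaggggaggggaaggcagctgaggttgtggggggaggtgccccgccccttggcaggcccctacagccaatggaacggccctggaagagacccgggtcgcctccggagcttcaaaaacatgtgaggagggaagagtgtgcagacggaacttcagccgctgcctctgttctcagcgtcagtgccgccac
The ACTN2 window was 80.3% G or C, the highest of the 8, and the ACTA2 window was 54.7%, the lowest.

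Gene counts per library ranged from 30071951 to 37918025 in H1047R insulin and from 21483124 to 29255708 in the other groups. The H1047R insulin libraries also stood apart in the share of multiply placed reads, at 8.48 to 9.51% against 13.6 to 15.4% in the other groups. The part of these shifts in the results below was not tested. PIK3CA was at 734, 714 and 715 CPM (gene counts scaled to library size) in H1047R insulin and 312, 180.1 and 215 CPM in H1047R vehicle, against 80.9 to 85.9 CPM in control insulin and 88.2 to 89.0 CPM in control vehicle. Plasmid and chromosomal transcripts cannot be told apart in these counts, and their sum was higher with insulin in H1047R cells. Its log2 fold change with insulin was 1.62 ± 0.0839 in H1047R cells and -0.10 ± 0.0912 in control cells (± SE). In H1047R cells, insulin treatment and the amount of PIK3CA transcript thus changed together, and their effects cannot be told apart in these libraries. This holds wherever a change with insulin in H1047R cells is given below. For the epithelial label, the keratins KRT8 (1359 to 1504 CPM), KRT18 (839 to 1122 CPM), KRT19 (565 to 757 CPM) and KRT7 (47.9 to 63.2 CPM) were expressed in every library, PAX8 was at 4.21 to 7.68 CPM, and EPCAM (0.379 to 1.06 CPM) and CDH1 (1.11 to 2.38 CPM) were low, while VIM (1726 to 2348 CPM) and COL1A1 (1966 to 3005 CPM), genes of mesenchymal cells, were abundant. With insulin in H1047R cells, 1 of the 7 epithelial markers rose (KRT19, 0.24 ± 0.0364 on the log2 scale) and 1 fell (KRT7, -0.30 ± 0.0479). Both passed the threshold for differential expression given below, as did 9.85% (higher) and 9.8% (lower) of all genes tested.

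The actinins were examined first. In H1047R insulin, all 3 were higher than in the other groups, with ACTN2 far ahead in fold and far behind in level. ACTN2 (chromosome 1, 236664141 to 236764631 in hg38) had 230, 253 and 309 counts in H1047R insulin, 22, 12 and 10 in H1047R vehicle, 1, 5 and 2 in control insulin, and 3, 4 and 3 in control vehicle. No library of H1047R insulin overlapped any other group, no library of H1047R vehicle overlapped the control groups, and the control groups overlapped each other. Scaled to library size, the means were 7.49 ± 0.527, 0.603 ± 0.281, 0.0948 ± 0.0696 and 0.132 ± 0.0158 CPM in that order (SD, n = 3 libraries). With insulin in H1047R cells the summed, size-scaled counts were 12.5 times those with vehicle (95% exact interval 9.26 to 17.4), and the log2 fold change (fitted, ± SE throughout) was 3.64 ± 0.192. Against control insulin the ratio was 77.6 (39.2 to 180.3) and the log2 fold change 6.21 ± 0.264. These intervals cover counting error only, and the values chose the gene, so they are given without a test.

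Few counts lay behind the lower groups. Without H1047R vehicle replicate 1, which held 22 of the 44 ACTN2 counts of its group, the log2 fold change with insulin in H1047R cells was 4.10, and without control insulin replicate 2, which held 5 of 8 counts, that of H1047R in insulin was 6.96. The ratio of H1047R vehicle to control vehicle was 4.53 (2.25 to 10.1) and the log2 fold change 2.14 ± 0.457, with all 3 libraries higher. This did not pass the threshold for differential expression, a false discovery rate (FDR) below 0.001 in edgeR's quasi-likelihood test (adjusted p = 0.00995, range 0.00202 to 0.167 with each library left out in turn), though it did when no gene was filtered out (adjusted p = 0.000681). In control cells, insulin gave a ratio of 0.732 (0.251 to 2.06), which includes no change.

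ACTN1 (chromosome 14, 68874128 to 68979440) was at 488, 480.5 and 479.6 CPM in H1047R insulin, 402, 389 and 375 in H1047R vehicle, 356, 361 and 367 in control insulin, and 359.8, 376 and 393 in control vehicle. Every H1047R insulin library was above every other library. The remaining groups overlapped their neighbours in mean level, though every H1047R vehicle library was above every control insulin library. Insulin gave a log2 fold change of 0.31 ± 0.0374 in H1047R cells and -0.06 ± 0.0377 in control cells (adjusted p = 0.504 in control cells).

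ACTN4 (chromosome 19, 38647649 to 38731589) was at 410.1, 406 and 399 CPM in H1047R insulin, 356, 354 and 337 in H1047R vehicle, 311, 318 and 315 in control insulin, and 335, 356 and 339 in control vehicle. It was highest in H1047R insulin and lowest in control insulin, with neither overlapping another group. The log2 fold change with insulin was 0.22 ± 0.0367 in H1047R cells and -0.13 ± 0.0370 in control cells, where it did not pass the threshold (adjusted p = 0.0329).

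ACTN2 stayed the minor actinin in every library. Per kilobase of transcript, ACTN2 was at 1.54 ± 0.108 CPM in H1047R insulin, against 129.7 ± 1.23 for ACTN1 and 81.2 ± 1.10 for ACTN4 (SD, n = 3). Its share of the 3 actinins per kilobase was 0.718%, 0.674% and 0.781% in H1047R insulin, 0.0506 to 0.106% in H1047R vehicle, 0.00477 to 0.0219% in control insulin and 0.0143 to 0.0170% in control vehicle. The coding sequences were 75.0% identical between ACTN1 and ACTN2, 79.0% between ACTN1 and ACTN4 and 74.0% between ACTN2 and ACTN4. No stretch of 50 bases of the ACTN2 transcript matched another annotated transcript exactly. ACTN3, the fast-fibre actinin, had 3 counts in all of H1047R insulin, 6 in H1047R vehicle and 0 in both control groups, which is too few to compare.

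**Figure D1:**
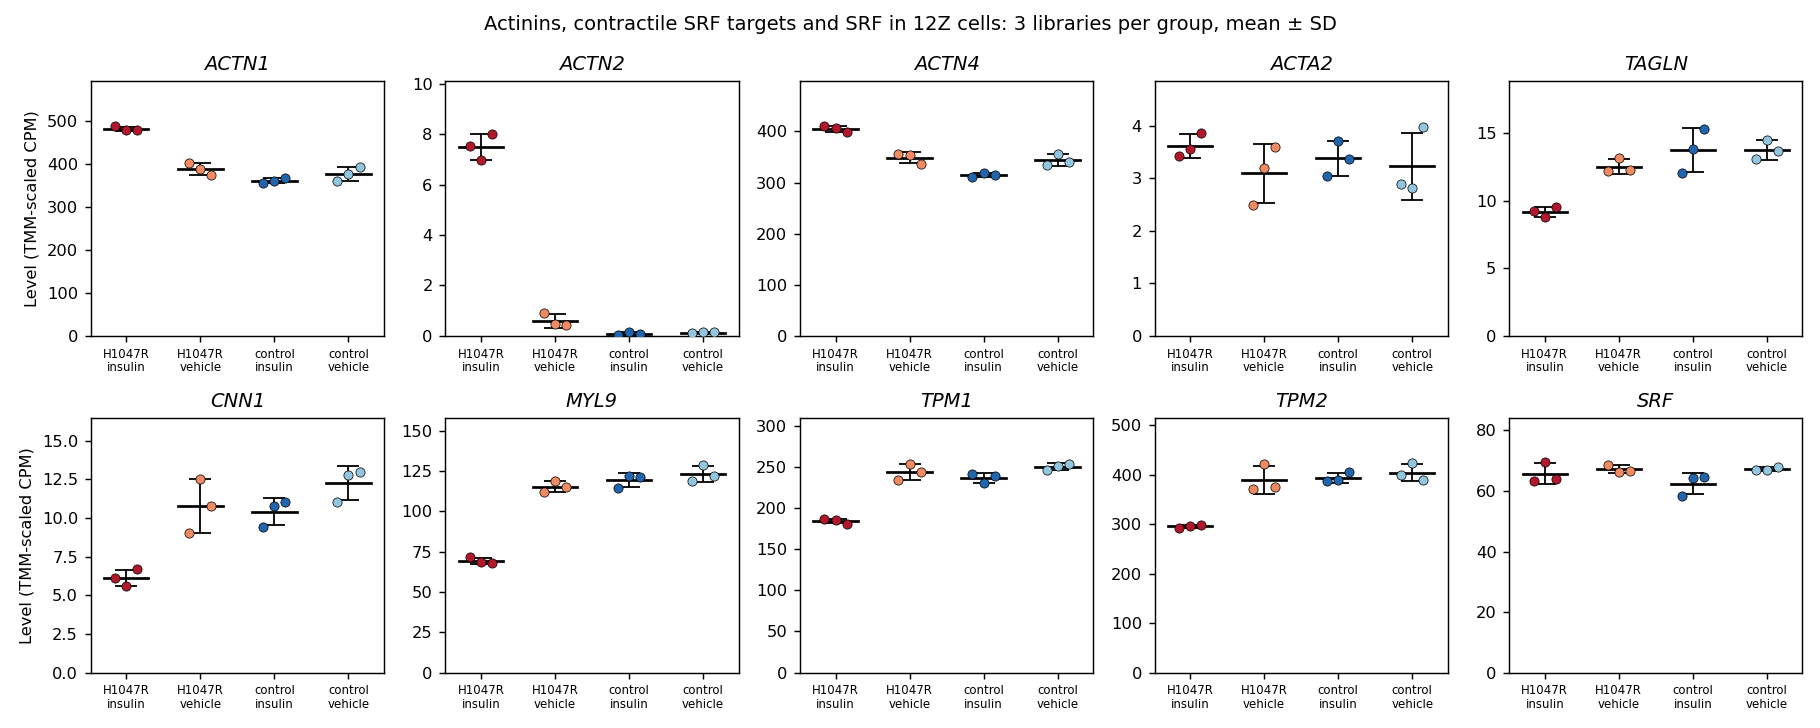
Levels of the 10 genes in TMM-scaled CPM (vertical axes, each from 0), 1 point per library, with the group mean as a bar and the SD as whiskers (n = 3). ACTN2 averaged 7.49 CPM in H1047R insulin against 0.603 CPM in H1047R vehicle, ACTN1 and ACTN4 were highest there, and TAGLN, CNN1, MYL9, TPM1 and TPM2 were lowest there.

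The contractile genes went the other way. Of the 6, 5 were lower in every H1047R insulin library than in every other library, and ACTA2 was not. MYL9 (chromosome 20, 36541497 to 36551447) was at 71.6, 68.9 and 68.0 CPM in H1047R insulin, 112, 119 and 115 in H1047R vehicle, 115, 122 and 121 in control insulin, and 119, 129 and 122 in control vehicle. The other 3 groups lay close together, and the H1047R insulin libraries stood well below them. With insulin, the log2 fold change was -0.73 ± 0.0443 in H1047R cells and -0.05 ± 0.0433 in control cells (adjusted p = 0.691 in control cells).

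CNN1 (chromosome 19, 11538767 to 11550323) was at 6.11, 5.61 and 6.66 CPM in H1047R insulin, 9.01, 12.5 and 10.8 in H1047R vehicle, 9.40, 10.8 and 11.0 in control insulin, and 11.0, 12.8 and 13.0 in control vehicle. Its log2 fold change with insulin was -0.81 ± 0.105 in H1047R cells, the largest decrease of the 10. In control cells it was -0.23 ± 0.0980, with overlapping libraries (adjusted p = 0.191).

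TAGLN (chromosome 11, 117199370 to 117207464) was at 9.21, 8.80 and 9.54 CPM in H1047R insulin, 12.2, 13.1 and 12.3 in H1047R vehicle, 12.0, 13.9 and 15.3 in control insulin, and 13.1, 14.5 and 13.7 in control vehicle. The log2 fold change with insulin was -0.45 ± 0.0860 in H1047R cells, which with counts taken regardless of strand was -0.38 and no longer passed the threshold. In control cells it was 0.00 ± 0.0827, with overlapping libraries (adjusted p = 0.991). TAGLN levels are uncertain, since 65.5% of its 50-base windows are shared with an unnamed gene annotated on the same strand at that place, and reads over both count for neither.

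Both tropomyosins were lower by about the same amount. TPM1 (chromosome 15, 63042620 to 63071915) was at 186, 185 and 181 CPM in H1047R insulin, 234, 253 and 243 in H1047R vehicle, 241, 230.3 and 239 in control insulin, and 246, 251 and 254 in control vehicle. TPM2 (chromosome 9, 35681992 to 35690056) was at 292, 295 and 298 CPM in H1047R insulin, 371, 422 and 376 in H1047R vehicle, 387, 389 and 406 in control insulin, and 399, 423 and 389.7 in control vehicle. In both genes the H1047R insulin libraries lay below all others. The log2 fold change with insulin in H1047R cells was -0.40 ± 0.0386 for TPM1 and -0.40 ± 0.0415 for TPM2, and in control cells -0.08 ± 0.0385 and -0.04 ± 0.0414 in the same order (adjusted p = 0.287 and 0.755). Tropomyosin genes make many transcript forms by splicing, which gene counts do not separate.

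ACTA2 (chromosome 10, 88935074 to 88991339), which encodes smooth muscle α-actin, stayed low in every group. It was at 3.43, 3.55 and 3.86 CPM in H1047R insulin, 2.48, 3.19 and 3.60 in H1047R vehicle, 3.05, 3.71 and 3.37 in control insulin, and 2.89, 2.82 and 3.97 in control vehicle. All 4 groups overlapped. Insulin gave log2 fold changes of 0.23 ± 0.148 in H1047R cells and 0.09 ± 0.154 in control cells (adjusted p = 0.859 in control cells).

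SRF itself (chromosome 6, 43171269 to 43181506) was at 63.4, 69.6 and 64.0 CPM in H1047R insulin, 68.7, 66.4 and 66.5 in H1047R vehicle, 58.4, 64.2 and 64.5 in control insulin, and 67.0, 67.0 and 68.1 in control vehicle. Groups next to each other in mean level overlapped, but every control insulin library lay below every control vehicle library. With insulin, the log2 fold change was -0.03 ± 0.0480 in H1047R cells and -0.11 ± 0.0488 in control cells (adjusted p = 0.234 in control cells).

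**Figure D2:**
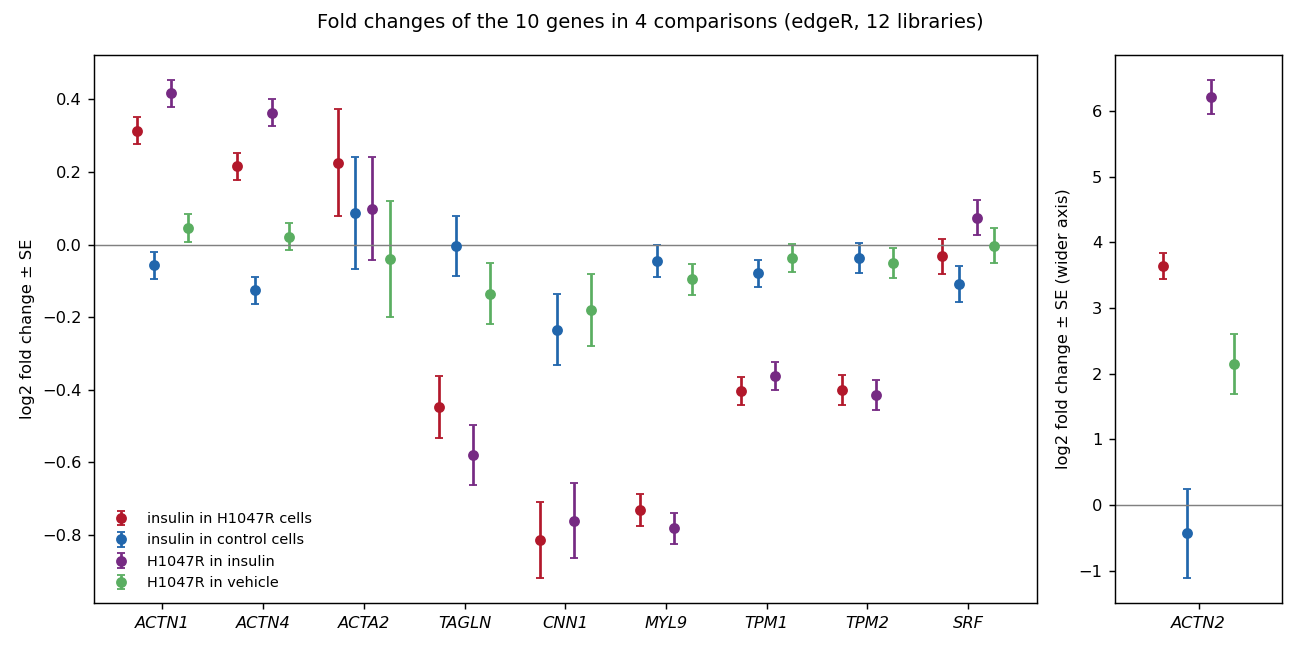
Fitted log2 fold changes (vertical axes) ± SE of the 10 genes in 4 comparisons, with ACTN2 on a wider axis of its own. Insulin in H1047R cells and H1047R in insulin, which share the H1047R insulin libraries, run from -0.81 for CNN1 to 6.21 for ACTN2, while insulin in control cells lies near 0 for most genes.

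Counted over the 10 genes, insulin in H1047R cells gave 8 past the threshold, 3 higher (the actinins) and 5 lower. Over all 22756 genes tested, 19.6% passed, 9.85% higher and 9.8% lower. Libraries of the 2 groups did not overlap for 8 of the 10 genes and for 44.8% of all genes tested. H1047R in insulin likewise gave 8, the same 3 higher and 5 lower, where 23.5% of all genes passed, 11.4% higher and 12% lower. The difference of the insulin responses between H1047R and control cells passed for 6 of the 10, ACTN1, ACTN2 and ACTN4 higher and MYL9, TPM1 and TPM2 lower, where 9.07% of all genes passed, 4.58% higher and 4.49% lower. All of these use the libraries that chose ACTN2 and are a description only. For ACTN2 that difference was 4.07 ± 0.789 on the log2 scale, and it no longer passed without control vehicle replicate 2 (4.00) or 3 (4.04). For CNN1 it was -0.58 ± 0.143 and for TAGLN -0.44 ± 0.119, which passed only without H1047R vehicle replicate 1 (-0.66 for CNN1) or control insulin replicate 1 (-0.53 for TAGLN), or for CNN1 under settings given with the other alternatives.

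In the comparisons that left out H1047R insulin, no member passed. Insulin in control cells gave 0 of 10 past the threshold by edgeR and 0 by DESeq2, with 4 at an unadjusted p under 0.05 (ACTN4, CNN1, SRF and TPM1), where 1.63% of all genes passed. H1047R in vehicle gave 0 of 10 by edgeR and 0 by DESeq2, with 2 at an unadjusted p under 0.05 (ACTN2 and MYL9), where 0.158% of all genes passed. For MYL9 the log2 fold change of H1047R in vehicle was -0.10 ± 0.0436 (adjusted p = 0.355).

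Per kilobase of transcript, the order of levels in H1047R insulin was TPM2 (248 CPM), TPM1 (151), ACTN1 (129.7), ACTN4 (81.2), MYL9 (24.9), SRF (15.5), CNN1 (4.09), ACTA2 (2.68), TAGLN (2.43) and ACTN2 (1.54). In control vehicle it was TPM2 (339 CPM), TPM1 (206), ACTN1 (101), ACTN4 (68.9), MYL9 (44.2), SRF (15.9), CNN1 (8.17), TAGLN (3.63), ACTA2 (2.39) and ACTN2 (0.0272). These orders differ only at ACTA2 and TAGLN. The TAGLN counts were divided by its full transcript length of 3786 bases. Because 65.5% of the windows along that transcript are shared with the unnamed gene, its level per kilobase may be too low. The place of TAGLN relative to CNN1 and ACTA2 is therefore uncertain in both orders. In H1047R insulin, TPM1 was 151 ± 2.33 and ACTN1 129.7 ± 1.23 CPM per kilobase, against 206 ± 3.47 and 101 ± 4.42 in control vehicle (SD, n = 3).

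Lists of other contractile and SRF-pathway genes were then examined, none of them members. Of 84 that were tested, 13 were higher and 19 lower with insulin in H1047R cells (38.1%). The median log2 fold change was near 0 (5.3e-05), beside -0.000607 over all genes. Over all genes tested 19.6% passed, a share that includes genes of very low counts. With at least 1 CPM in 3 libraries, 4354 of 13726 passed. By quartile of transcript length, 12.7 to 18.9% of genes averaging at least 1 CPM rose and 15 to 19% fell. These shares stand beside each list below. The alpha-actinin partners and Z-disc genes divided. MYPN, which encodes the Z-disc protein myopalladin, was at 7.15, 7.21 and 6.87 CPM in H1047R insulin against 3.16, 2.06 and 2.57 in H1047R vehicle. PDLIM7, whose LIM-domain protein binds actin filaments, was at 118, 111 and 111 CPM in H1047R insulin against 72.6, 61.4 and 65.6 in H1047R vehicle. Neither gene's groups overlapped, and their log2 fold changes were 1.45 ± 0.139 and 0.77 ± 0.0495 (adjusted p = 2.58e-11 and 3.48e-16). In all, 3 of 17 rose, with PDLIM4 at 0.56 ± 0.0670, and 2 fell, PDLIM1 at -0.36 ± 0.0379 and CSRP1 at -0.28 ± 0.0408. In control cells, insulin raised none of the 17 and lowered 2, PDLIM5 (-0.39 ± 0.0412) and CSRP1 (-0.32 ± 0.0411), where 1.15% of all genes were lowered.

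Other actins, tropomyosins, myosins and filament binders were examined next. With insulin in H1047R cells, 1 of 23 rose, 11 fell and 11 did not pass, with a median of -0.199 on the log2 scale. MYL6, the essential light chain that pairs with MYL9 on non-muscle and smooth muscle myosin, was at 255, 265 and 273 CPM in H1047R insulin against 376, 411 and 382 in H1047R vehicle, a log2 fold change of -0.56 ± 0.0466 (adjusted p = 6.05e-13). LMOD1, a leiomodin that nucleates actin in smooth muscle, was at 0.980, 1.10 and 1.24 CPM in H1047R insulin against 2.06, 2.30 and 2.65 in H1047R vehicle. Its log2 fold change was -1.06 ± 0.201 (adjusted p = 3.56e-05), and -0.68 without passing when strand was disregarded. The exception was SMTN, which encodes the actin-binding smoothelin, at 71.0, 69.3 and 75.4 CPM in H1047R insulin against 46.6, 46.3 and 47.2 in H1047R vehicle (log2 fold change 0.62 ± 0.0474, adjusted p = 4.97e-14). In control cells, 0 of the 23 rose and 1 fell, MYLK, the myosin light chain kinase (-0.28 ± 0.0377).

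Among the adhesion and cytoskeletal targets of MRTF and SRF, 4 of 16 fell with insulin in H1047R cells. The median log2 fold change of the 16 was -0.0335, near 0, and a gene of this list is not reported here. CAV1, the coat protein of caveolae, was lower (-0.24 ± 0.0345), as was LPP (-0.39 ± 0.0620), a focal adhesion protein, though LPP did not pass in DESeq2 (-0.38). In control cells VCL, which encodes vinculin, was the 1 gene of 16 that fell and none rose, at -0.19 ± 0.0345 (adjusted p = 0.000159). It no longer passed without control vehicle replicate 2 (-0.18), control insulin replicate 2 (-0.19) or control insulin replicate 3 (-0.18).

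Of the 5 SRF cofactors named at the start, a set picked after their values were seen, ELK3 rose with insulin in H1047R cells (log2 fold change 0.33 ± 0.0411, adjusted p = 2.08e-08). The other four did not pass, with log2 fold changes of 0.11 ± 0.0523 for MRTFA, 0.05 ± 0.0433 for ELK1, -0.14 ± 0.0607 for ELK4 and -0.20 ± 0.0481 for MRTFB, which lay just outside the threshold (adjusted p = 0.00107). In control cells none of the 5 passed, with 2 at an unadjusted p under 0.05 (MRTFA and ELK3). Among the immediate early genes, 6 of 8 SRF targets rose and none fell, with a median of 0.807, a pattern already known when the list was made. JUNB was at 23.7, 24.7 and 25.0 CPM in H1047R insulin against 15.7, 12.6 and 11.9 in H1047R vehicle, IER2 had a log2 fold change of 0.74 ± 0.0546 and FOSB of 1.01 ± 0.157. In control cells insulin changed 0 of the 8 by edgeR, with 1 at an unadjusted p under 0.05.

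**Figure D3:**
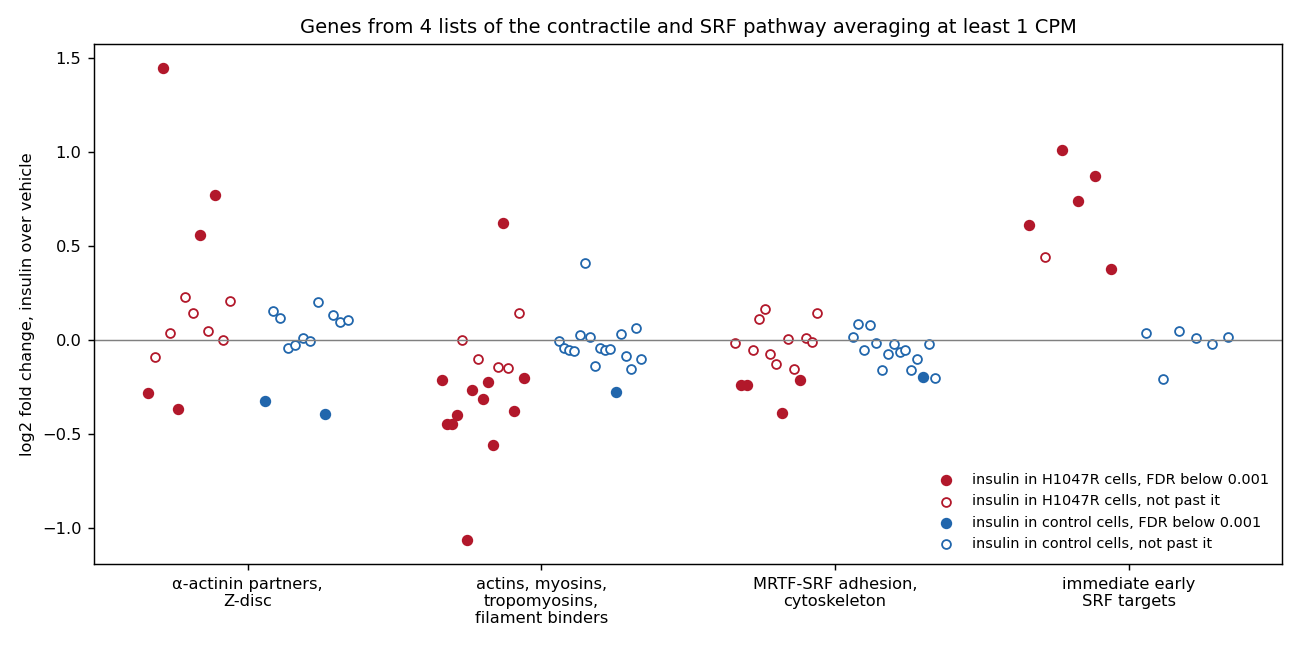
Log2 fold change with insulin (vertical axis) of genes from 4 of the lists averaging at least 1 CPM, members and a gene not reported here left out, in H1047R cells (red, left in each list) and control cells (blue, right), with filled points past an FDR of 0.001. In H1047R cells the actins, myosins and filament binders lie mostly below 0 and the immediate early genes above it. In control cells 4 of 84 tested genes passed, all below 0.

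With H1047R in insulin, 19 of the 84 listed genes were higher and 18 lower (44%). The difference of the insulin responses passed for 12 higher and 9 lower (25%). Over all genes tested these shares were 23.5% and 9.07%. With at least 1 CPM in 3 libraries, 5159 and 1962 of 13726 genes passed in the same order. H1047R in vehicle gave 0 of 84 by edgeR and 0 by DESeq2, with 14 at an unadjusted p under 0.05. PDLIM5, whose protein binds α-actinin at the Z-disc, was at 341, 322 and 336 CPM in H1047R insulin and 321, 321 and 324 in H1047R vehicle, against 249.9, 229.6 and 216 in control insulin and 305, 303 and 304 in control vehicle. Control insulin was lowest and control vehicle next, neither overlapping another group, and the H1047R groups overlapped. For H1047R in insulin the log2 fold change was 0.52 ± 0.0409 (adjusted p = 7.24e-14).

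**Figure D4:**
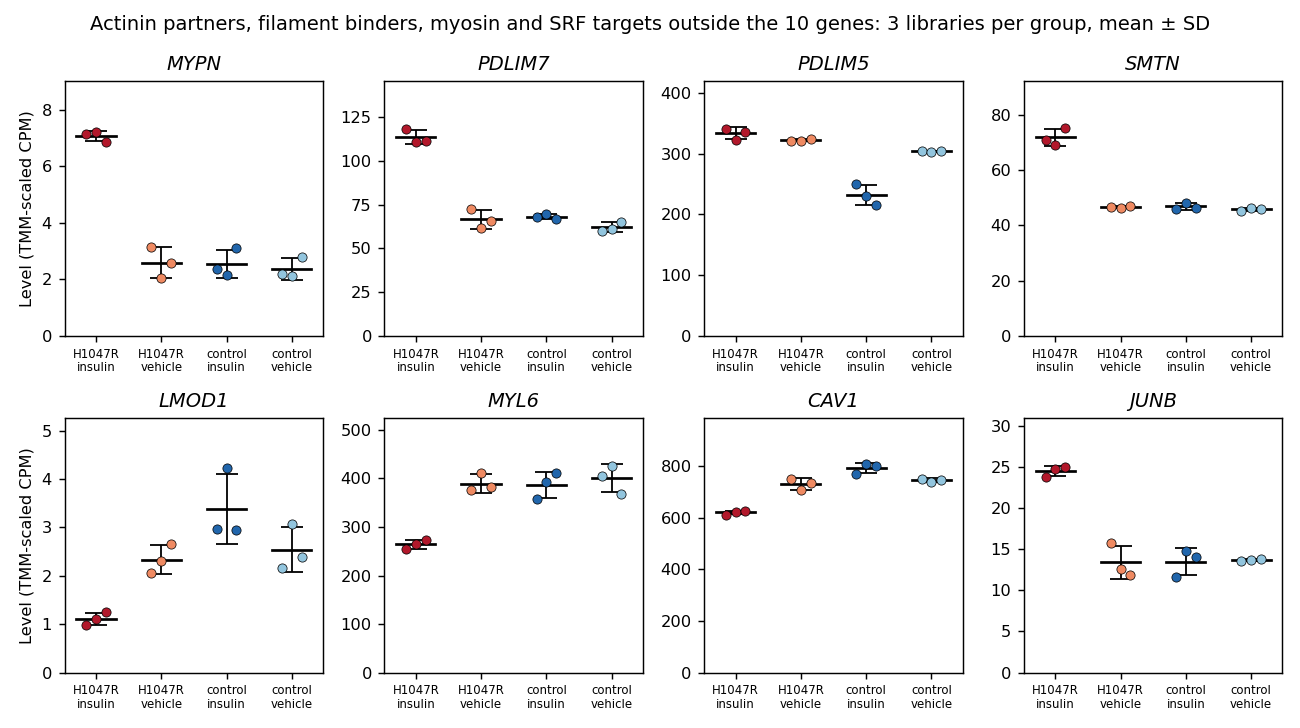
Levels of 8 listed genes in TMM-scaled CPM (vertical axes, each from 0), 1 point per library, with the group mean as a bar and the SD as whiskers (n = 3). MYPN, PDLIM7, SMTN and JUNB are highest and LMOD1, MYL6 and CAV1 lowest in H1047R insulin, whereas PDLIM5 is lowest in control insulin.

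Muscle markers were examined beside ACTN2. Of 10 striated muscle markers, which include MYH6, MYH7, TNNT2 and MYOD1, 7 had at most 10 counts in the 12 libraries together. Of these 7, 1 had no count in any library. The sum of the 10 was 0.980 to 1.18 CPM in H1047R insulin against 0.463 to 0.662 CPM in H1047R vehicle, 0.531 to 0.653 CPM in control insulin and 0.643 to 0.934 CPM in control vehicle. None of the 3 that could be tested passed in any comparison. Of 6 smooth muscle markers, MYH11, the smooth muscle myosin, had 13 counts in all of H1047R insulin and 1 in all of H1047R vehicle, and MYOCD 8 in each. Their sum, mostly CNN1 and LMOD1, was 7.26 to 8.40 CPM in H1047R insulin against 11.2 to 15.2 CPM in H1047R vehicle. CNN1 is one of the members, so this sum largely repeats its value. Of the 6, CNN1 and LMOD1 fell and 0 rose past the threshold with insulin in H1047R cells. The median log2 fold change of the 6 was 0.112, so the list went both ways. Stromal fibroblast markers summed to 4962 to 5148 CPM in H1047R insulin against 6198 to 6322 CPM in H1047R vehicle, with 6 of 7 lower, led by DCN (-3.07 ± 0.0970) and LUM (-1.98 ± 0.0707), and VIM higher (0.17 ± 0.0362). Their part in the lower contractile genes was not tested, and in bulk RNA fewer cells of a type and less RNA per cell cannot be told apart.

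Likeness of pattern over the 12 libraries was measured by Pearson's r of log2 CPM with a prior count of 2, among 12916 genes averaging at least 1 CPM. The genes most like ACTN2 were RBM10 (0.997), ZNF317 (0.993), USP36 (0.991), RSAD2 (0.990) and DDX60 (0.990). Those most like TAGLN were RARS2 (0.987), IDH2 (0.986), RPS3AP6 (0.982), RPS24 (0.978) and CERS4 (0.976). A high r does not mean a change of the same size. With insulin in H1047R cells the fitted fold was 12.4 for ACTN2. It was 1.16 for RBM10, 1.26 for ZNF317, 1.63 for USP36, 15.8 for RSAD2 and 4.97 for DDX60. The 12 points are 4 groups of 3, and the H1047R insulin group, which differs from the others in depth and multiply placed reads, sets much of each r, so these are descriptions with no test.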

How the data were processed

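Reverse-strand gene counts of 12 libraries of 12Z cells were used. Per the submitters' processing notes and the methods, cutadapt and Trim Galore trimmed the reads, and STAR placed them on hg38. The authors deposited STAR's raw counts per gene without normalization. Tool versions and the human annotation release: not given in the sources used here, since the release named in the methods is a mouse release. Gene coordinates came from another annotation of hg38 (GENCODE) and may differ from that used for counting. Multiply placed reads are not counted, so genes sharing sequence are undercounted. Symbols matched 42009 of 60617 identifiers. Rows of unmapped (3.12 to 4.09%), multiply placed (8.48 to 15.4%), unassigned (3.91 to 4.55%) and ambiguous reads (3.31 to 3.61%) were left out. Gene counts per library ranged from 21483124 to 37918025.

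The edgeR quasi-likelihood test (version 4.0.16, TMM, R 4.3.3) was run on 22756 genes with a mean of 1 count or more, in 1 fit of 12 libraries with 1 coefficient per group, and called at a Benjamini-Hochberg FDR below 0.001 over all of them. SE was taken as |log2 fold change| over the root of F. The procedure was tested on simulated data. Levels per kilobase used MANE Select transcript lengths. Every replicate pair exceeded counting noise, with chi-square over its degrees of freedom at 2.70 to 5.90.

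Members and lists were chosen with earlier results of these data known. Besides the members, PIK3CA and ACTN3, the text names up to 3 called genes per list and comparison with the largest change among those averaging at least 1 CPM, list members in counts, and the 5 genes most like ACTN2 and TAGLN. PDLIM1, VIM and single markers (KRT8, EPCAM, CDH1, COL1A1, MYH11 and MYOCD) and cofactors (MRTFA, MRTFB, ELK1 and ELK4) were named after their values were seen. Alternatives were other size factors, DESeq2 1.42.0, other filters, counts without strand, a replicate block, only the compared groups, and leaving out each library. Some listed genes are not reported here.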

Additional observations from a re-analysis of the deposited data

Results flagged for a closer look

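For the genes below the insulin response differed between H1047R and control cells, in that the difference of the log2 fold changes passed an FDR of 0.001 in edgeR. Among the 10 genes it was 4.07 for ACTN2, 0.37 for ACTN1 and 0.34 for ACTN4, and -0.69 for MYL9, -0.36 for TPM2 and -0.32 for TPM1. These values come from the libraries by which ACTN2 was chosen. PIK3CA counts also differed in this way (1.72), and the part of PIK3CA amount in the values here and below was not tested.

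Among actinin partners and filament genes it was 1.33 for MYPN, 0.64 for PDLIM7, 0.44 for PDLIM5, 0.59 for SMTN, -0.51 for MYL6 and -1.47 for LMOD1. For LMOD1 it no longer passed when strand was disregarded (-1.15). Among SRF targets and regulators it was 0.89 for JUNB, 0.73 for IER2, 0.57 for EGR1, 0.35 for ZYX, 0.33 for FHL2, 0.45 for ELK3 and -0.25 for CFL2. The ZYX, FHL2 and CFL2 values lay near the threshold. ZYX no longer passed without control insulin replicate 1 (0.31). FHL2 lost its call in 9 of 12 fits that left out a library and CFL2 in 10 of 12.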

How the results depend on the processing

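With RLE size factors, library totals, DESeq2, other filters, counts without strand or only the compared groups, counts of the 10 genes past the threshold stayed within 1.5 times those reported, except H1047R in vehicle without a filter, where 1 gene passed (ACTN2). Leaving out each library gave 8 of 10 for insulin in H1047R cells and for H1047R in insulin, 5 to 7 for the difference of responses and 0 for the other comparisons. Other pathway genes past the threshold numbered 28 to 36, 33 to 39, 18 to 28, 3 to 4 (insulin in control cells) and 0 (H1047R in vehicle).

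Signs turned only for genes near 0, none past the threshold, and the cause was not tested. Without strand, ACTA2 was -0.0021 for insulin in control cells and 0.0534 for H1047R in vehicle. With library totals, TAGLN was 0.0025 for insulin in control cells and SRF 7e-04 for insulin in H1047R cells and 0.0059 for H1047R in vehicle. That SRF value was 5e-04 with RLE size factors, DESeq2 or the 1 CPM filter. With libraries left out, insulin in control cells ran from -0.0033 to 0.2441 for ACTA2 and -0.0855 to 0.0824 for TAGLN, insulin in H1047R cells from -0.0766 to 0.0101 for SRF, H1047R in vehicle from -0.1603 to 0.1171 for ACTA2 and -0.0227 to 0.0061 for SRF, and the difference of responses from -0.0181 to 0.2597 for ACTA2.

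Same-numbered libraries did not deviate together (r of -0.0384 to 0.0873; 4 of 12 correlated best with their own number), so numbers were not taken to pair them. A replicate block gave 8 of 10 for insulin in H1047R cells and 7 for the difference of responses, CNN1 added, as it was without a filter. By a split chosen after seeing the data, genes were divided by transcript length. With insulin in H1047R cells the median log2 fold change was -0.0459 for transcripts of 276 to 2151 bases, which hold ACTA2, CNN1, TPM1 and TPM2. It was 0.0227 for the next quartile, which holds MYL9, and 0.0216 for the one after, which holds TAGLN, SRF and the 3 actinins. The longest quartile, with no member, was at 0.00838. MYL9 and TAGLN were lower with insulin too, and ACTA2 was not. The part of length in the member values was not tested.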
